A study of Mus musculus with 4 samples.

Results

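The 55 genes described here encode the chains of collagens (44 genes) and laminins (11 genes), taken by symbol from the 32285 genes of a mouse testis single-cell RNA-seq count matrix. A symbol was taken if it read Col, digits, a and digits (Col1a1), or Lama, Lamb or Lamc and a digit. The study made 4 libraries, 1 each from control and Znhit1 knockout testis at postnatal day 16 and postnatal day 35, to examine what loss of ZNHIT1 in germ cells does. ZNHIT1 is a subunit of a chromatin remodelling complex that places the histone variant H2A.Z. The counts described here are those of the day 35 knockout library, and the other 3 count matrices were not analysed here. Strain, Cre driver and number of animals are not given in the sources used here. Every value below therefore belongs to 1 knockout library, with no replicate and no control beside it, so no test between conditions was possible and no p-value is given.

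Collagen chains fold in threes into a triple helix. The fibrillar types (I, II, III, V and relatives) build banded fibres of connective tissue, while type IV forms the sheet of the basement membrane. Laminins are cross-shaped trimers of an alpha, a beta and a gamma chain that give the basement membrane its cell-binding face. In the testis a basement membrane surrounds each seminiferous tubule, with Sertoli cells and spermatogonia on its inner side and flat contractile peritubular myoid cells on its outer side. Spermatocytes lie further in, past the junctions between Sertoli cells.

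The library held 72459160 UMIs (unique molecular identifiers, 1 for each captured transcript) in 15306 barcodes, the lowest with 500 UMIs, the median with 3408.5 and the highest with 87246. The cells used, 7886 after filtering, held 48864984 UMIs. Clusters, built without the collagen and laminin genes, were named from marker genes, and each name means only "like" that type. The somatic classes held 970 Leydig, 607 peritubular myoid, 449 macrophage, 239 interstitial stroma, 191 Sertoli, 73 endothelial, 70 pericyte and 15 lymphocyte cells. The germ classes held 1597 spermatogonia, 2517 early prophase and 288 pachytene cells, no cluster took the name of a later stage, and 870 cells stayed unnamed. Lymphocytes were too few to be ranked against the other 10 classes. Znhit1 itself stood at 15.6 CPM (counts scaled to 1000000 UMIs of a class) in somatic and 2.48 CPM in germ classes, from 234 and 80 UMIs, with no control level to set it against. The barcode list of this library shared 57, 66 and 81 barcodes with those of the other 3.

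Collagen and laminin transcripts made up 49315 UMIs of the cells used, or 1009 CPM. All 55 genes had at least 1 UMI, 50 had at least 20, and 5 (Col9a1, Col9a2, Col10a1, Col12a1 and Col6a5) had fewer. Summed over the genes, the level was 13.9 times as high in somatic as in germ classes (95% interval 13.5 to 14.2), and 27.5 times with expected free RNA subtracted. The subtracted value used the lowest share of free RNA over marker lists for somatic classes and the median for germ classes. It depends on that choice. Intervals here and below are exact and cover counting error only. Of 49 genes with at least 20 UMIs over both groups, 31 were at least 2-fold higher in somatic and 5 at least 2-fold higher in germ classes. Among all genes, 25.5% were that much higher and 39.3% that much lower in somatic classes. The median log2 ratio of somatic to germ level was 2.05 for the collagen and laminin genes and -0.51 for all genes.

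**Figure D1:**
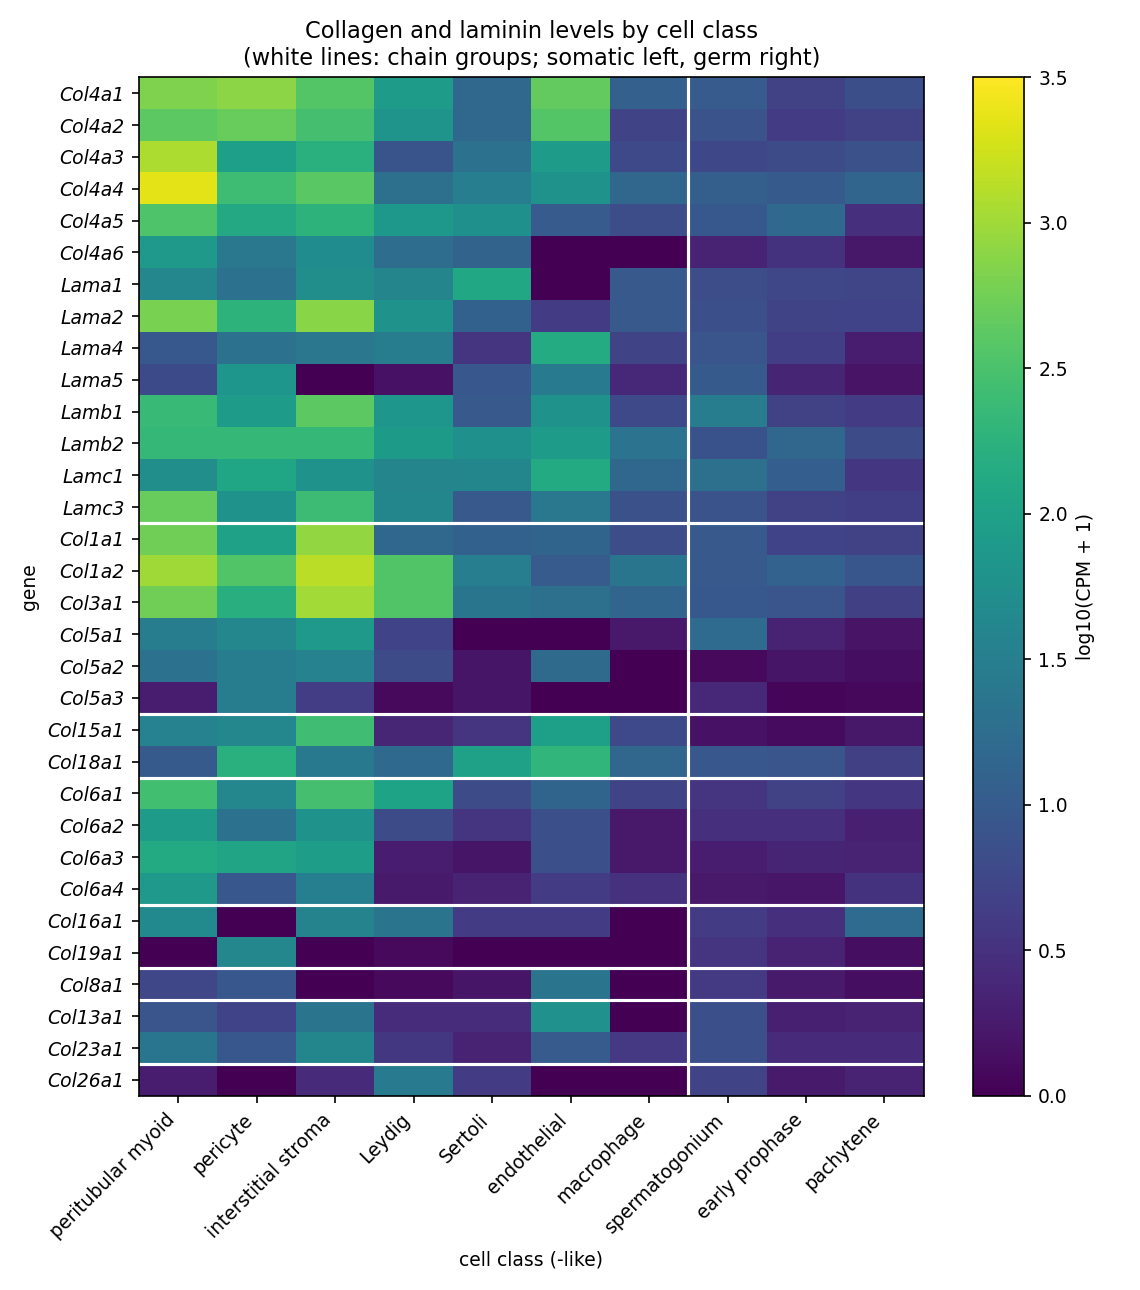
Level of the 32 collagen and laminin genes that reached 20 CPM in some class, as log10(CPM + 1), with classes in columns and genes in rows grouped by chain type. The brightest cells are Col4a4 and Col4a3 in peritubular myoid cells and Col1a2 and Col3a1 in interstitial stroma, and the 3 germ columns on the right are dark throughout.

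Basement membrane chains (the 6 type IV and 11 laminin genes) and fibrillar chains (11 genes) were distributed differently over the somatic classes. Peritubular myoid cells held 6631 CPM of basement membrane chains and 2176 CPM of fibrillar chains. Interstitial stroma held 3248 and 3401 CPM, Leydig cells 619 and 743 CPM, pericytes 2528 and 721 CPM, endothelial cells 1470 and 55.0 CPM, and Sertoli cells 419 and 76.2 CPM. The basement membrane share of both together was 96.4% in endothelial cells (94.4 to 97.8), 84.6% in Sertoli cells (82.0 to 87.0), 77.8% in pericytes (74.8 to 80.6) and 75.3% in peritubular myoid cells (74.7 to 75.9). It was 48.8% in interstitial stroma (47.3 to 50.4) and 45.5% in Leydig cells (44.6 to 46.4). The stromal share passed 50% at 53.2% with a mitochondrial limit of 20% and at 51.0% with type XV and XVIII collagen counted. The endothelial, Sertoli and stromal intervals thus do not touch, while those of pericytes and peritubular myoid cells overlap. In macrophages, which are not known as makers of either matrix, the summed levels were 112 and 42.7 CPM, a share of 72.4% (65.9 to 78.2). Barcodes under 1000 UMIs, used as the profile of free RNA from broken cells, held 497 and 224 CPM, a share of 68.9% (66.8 to 71.0). The expected share of free RNA in macrophages was 23.0%, and whether their levels exceed it was not tested.

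**Figure D2:**
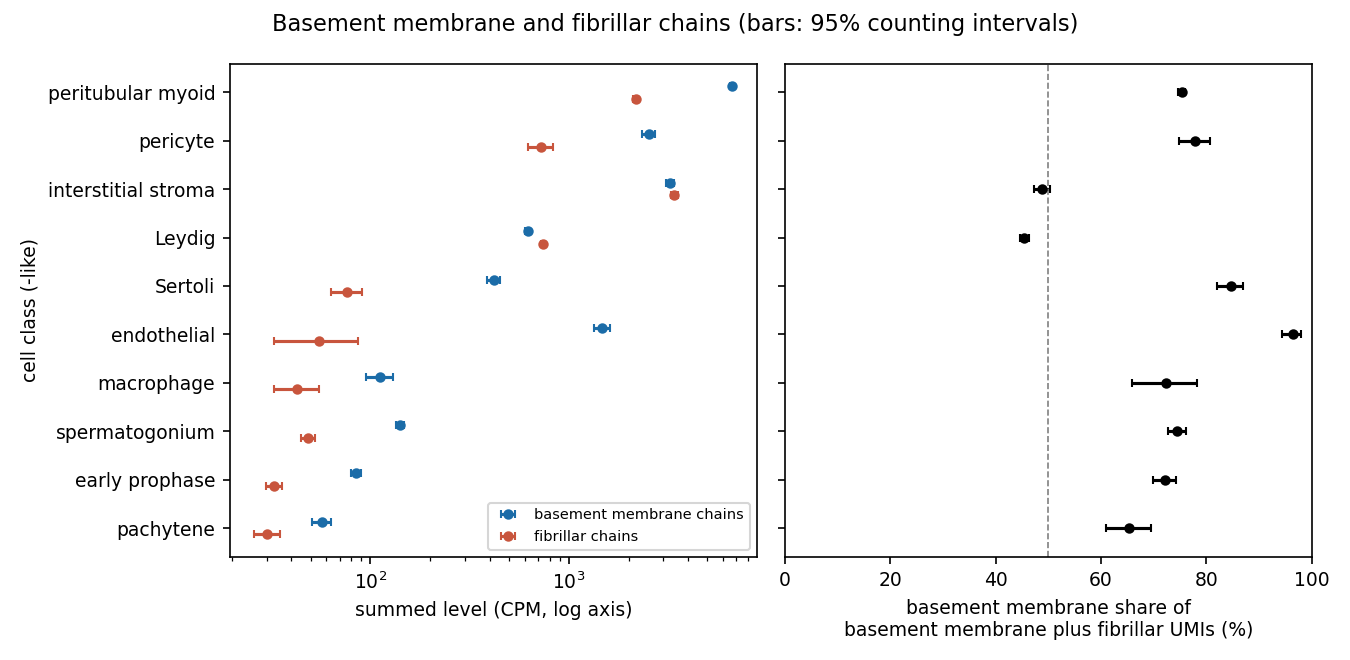
Left, summed CPM of basement membrane and fibrillar chains in each class on a log axis; right, the basement membrane share of their UMIs, with 95% counting intervals and a dashed line at 50%. Peritubular myoid cells lead in basement membrane chains (6631 CPM), stroma in fibrillar chains (3401 CPM), and only stroma, whose interval reaches the line, and Leydig cells lie below it among the somatic classes drawn.

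Each gene was then assigned to the class of its highest CPM, and called clear where the interval of its ratio to the next class stayed above 1. Of the 49 genes with enough UMIs, 44 peaked in a somatic and 5 in a germ class, and 25 were clear. Some of the 44 rest on few UMIs in a small class and were not clear, such as Col11a2, at 4.01 CPM in pericytes. In pooled counts Col11a2 had 5 UMIs in somatic and 37 in germ classes. Among all genes, 48.3% peaked in a germ class, and 20.5% were clear in a somatic and 29.5% in a germ class. Peritubular myoid cells were the highest class for 10 genes, 8 of them clear: Col4a3, Col4a4, Col4a5, Col4a6, Lamc3, Col6a2, Col6a4 and Col8a2. Among all genes, 1.71% were clear there. Interstitial stroma was clear for 7 genes (1.01% of all genes), Col1a1, Col1a2, Col3a1, Col15a1, Col23a1, Lama2 and Lamb1. Pericytes were clear for Col19a1, Col5a3 and Lama5 (1.59% of all genes), endothelial cells for Lama4 and Col13a1 (2.66%), Leydig cells for Col11a1 and Col26a1 (3.70%), and Sertoli cells for Lama1 (5.60%). In germ classes only Col22a1 in spermatogonia (9.68% of all genes) and Col2a1 in pachytene cells (12.6%) were clear. The Col22a1 call, 1.36 times Leydig cells (1.04 to 1.79), turned to 0.979 with equal weight for each cell. All 3 main chains of type I and III fibrils thus peaked in stroma, and 4 of the 6 type IV chains in peritubular myoid cells.

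Type IV collagen is assembled from 6 chains that go together in fixed combinations: alpha 1 with alpha 2 in nearly every basement membrane, and alpha 3, 4 and 5 or alpha 5 and 6 in specialised ones. The most abundant collagen or laminin transcript of peritubular myoid cells was Col4a4, at 2297 CPM (2234 to 2362). In interstitial stroma it stood at 403 CPM, in pericytes at 256, in endothelial cells at 61.1, in Sertoli cells at 29.99, in Leydig cells at 18.5 and in macrophages at 13.5. These levels include free RNA, and whether those of Leydig cells and macrophages exceed it was not tested. The peritubular level was 5.71 times that of stroma, the next class (5.02 to 6.51). With up to 20% mitochondrial UMIs allowed the ratio was smaller, from 2317 CPM in peritubular myoid cells and 602 CPM in stroma (544 to 663). The Sertoli level under that limit was 60.3 CPM (54.8 to 66.3). Col4a3 followed at 1175 CPM in peritubular myoid cells and 165 CPM in stroma, a ratio of 7.12 (5.83 to 8.78). Together these alpha 3 and alpha 4 chains made up 23.6% and 46.2% of peritubular type IV UMIs. In cells thinned to 1000 UMIs each, Col4a4 was seen in 529 of 607 peritubular myoid cells (87.1%), in 69 of 239 stromal cells (28.9%) and in 2 of 449 macrophages (0.445%). Without thinning these shares were 99.2%, 53.1% and 4.01%, at median depths of 3599, 2367 and 3050 UMIs per cell.

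The alpha 1 and alpha 2 chains followed another pattern. Col4a1 was 773 CPM in pericytes, 672 in peritubular myoid cells, 452 in endothelial cells, 365 in stroma, 83.8 in Leydig cells, 14.4 in Sertoli cells and 10.7 in macrophages. Col4a2 had the same order, at 485, 413, 367, 290, 63.9, 14.4 and 4.27 CPM. These levels include free RNA, whose expected share was 24.9% in Sertoli and 23.0% in macrophage cells. Whether the low Col4a1 and Col4a2 levels of these 2 classes exceed free RNA was not tested. For both genes the first and second classes do not differ beyond counting error, with ratios of 1.15 (0.985 to 1.34) and 1.17 (0.962 to 1.42). Col4a1 and Col4a2 made up 84.3% of endothelial and 71.5% of pericyte type IV UMIs, against 21.8% in peritubular myoid cells. The ratio of Col4a4 to Col4a1 UMIs ran from 0.135 in endothelial cells (0.0802 to 0.216) and 0.220 in Leydig cells (0.184 to 0.262) through 1.10 in stroma (0.917 to 1.33) to 3.42 in peritubular myoid cells (3.23 to 3.63). Free RNA was not subtracted from these ratios. Its profile held 210 UMIs of Col4a4 and 142 of Col4a1, and its expected share in Leydig cells was 18.8%. How much of the low Leydig level of Col4a4 is free RNA was not tested. The kit reads 1 end of each transcript, so CPM is not divided by length, but how well each gene's end is captured was not tested. Ratios, shares and rankings of different genes within 1 class, here and below, carry that uncertainty. The same ratio or share set between classes is less exposed to it.

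Col4a5 and Col4a6, the X-linked pair, were 342 and 75.8 CPM in peritubular myoid cells, 183 and 49.5 in stroma, 72.7 and 16.6 in Leydig cells and 55.8 and 12.0 in Sertoli cells. Their ratio hardly moved, at 4.51 (3.81 to 5.37), 3.70 (2.45 to 5.74), 4.38 (3.64 to 5.29) and 4.65 (2.85 to 7.96), with overlapping intervals. Endothelial cells had 3 UMIs of Col4a5 and 0 of Col4a6 among 318 type IV UMIs, so a share of Col4a6 of up to 1.15% remains possible. Col4a5 was the largest part of type IV in Sertoli cells, 38.1% of 244 UMIs (32.0 to 44.5), with free RNA not subtracted.

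The 6 type IV genes sit in 3 pairs, transcribed away from each other from neighbouring starts. In the GENCODE annotation of GRCm38, the build of the counts, Col4a1 and Col4a2 on chromosome 8 start within each other, with 22 bases in common. Col4a4 and Col4a3 on chromosome 1 start 71 bases apart, and Col4a6 and Col4a5 on chromosome X start 1308 bases apart. RefSeq promoter entries of GRCm38.p6 matched 40 of the 55 genes. They gave the 71 bases between Col4a4 and Col4a3 and the exon-free bases just before Col4a6 and Col4a5. They are shown because partners within a pair kept closer proportions over the 6 somatic classes than chains of different pairs: the ratio of Col4a1 to Col4a2 lay between 1 and 1.62 and that of Col4a4 to Col4a3 between 0.741 and 2.78, while that of Col4a4 to Col4a1 lay between 0.135 and 3.42. The Col4a4 stretch lies at chr1:82586850-82586920 (minus strand), that of Col4a6 at chrX:141474077-141474326 (minus strand) and that of Col4a5 at chrX:141475169-141475384 (plus strand), each read 5′ to 3′. Capitals mark matches, on either strand, to 3 motifs known from promoters. The CCAAT box was searched by those letters. The GC box was searched as GGGCGG. The TATA box was searched as TATAA.
Col4a4: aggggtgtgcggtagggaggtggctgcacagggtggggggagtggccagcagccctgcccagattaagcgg
Col4a6: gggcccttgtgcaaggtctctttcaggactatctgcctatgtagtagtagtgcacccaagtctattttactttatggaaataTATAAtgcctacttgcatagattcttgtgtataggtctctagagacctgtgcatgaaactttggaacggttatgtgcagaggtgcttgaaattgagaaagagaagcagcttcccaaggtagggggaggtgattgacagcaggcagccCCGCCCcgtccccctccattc
Col4a5: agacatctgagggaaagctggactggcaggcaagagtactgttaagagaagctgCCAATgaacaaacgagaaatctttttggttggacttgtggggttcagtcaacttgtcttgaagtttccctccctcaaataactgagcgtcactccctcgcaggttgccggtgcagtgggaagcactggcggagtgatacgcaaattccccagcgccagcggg
The 71 bases before Col4a4 are 69.0% G and C and hold none of the 3 motifs, which occur in 13.3%, 20.7% and 8.14% of the same stretch of 32851 RefSeq promoters. The Col4a6 stretch of 250 bases holds 1 GC box and 1 TATA box, present in 32.7% and 22.8% of promoters over that stretch. The Col4a5 stretch of 216 bases holds 1 CCAAT box, present in 30.5%. A match of letters is a description and not a site.

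Laminin alpha chains carry the cell-binding domains, and the leading alpha chain differed between classes. Lama2 was 91.5% of alpha UMIs in peritubular myoid cells (89.9 to 92.8) and 90.4% in stroma (87.5 to 92.8), at 622 and 759 CPM. Lama4 was 74.6% in endothelial cells (62.1 to 84.7), at 144 CPM, against 8.21 CPM in peritubular myoid cells. Lama1 was 80.7% in Sertoli cells (75.3 to 85.4). Lama5 was 23.3% of alpha UMIs in pericytes (14.2 to 34.6), at 68.1 CPM from 17 UMIs, and stood at 5.02 CPM in peritubular myoid cells. Leydig cells showed a mixture, 45.1% Lama2, 28.7% Lama1 and 22.3% Lama4. Lama3, the alpha chain of epithelial anchoring laminins, peaked at 18.3 CPM in endothelial cells from 6 UMIs, not clear of Sertoli cells at 7.80 CPM.

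Lama1 stood at 123 CPM in Sertoli cells (107 to 141), 2.33 times stroma at 52.8 CPM (1.60 to 3.49), with 41.1 CPM in peritubular myoid, 38.0 in Leydig and 8.54 CPM in macrophage cells. The 2 Sertoli clusters held 112 and 79 cells, led by Sox9 and Wnt4 among other genes. Of all 3460 Lama1 UMIs in the library, 27.0% lay in cells used and 68.6% in barcodes with over 10% mitochondrial UMIs, which hold 25.6% of the UMIs of all genes. Col27a1, Col6a6 and Col18a1 had 67.6%, 65.0% and 61.6% of their UMIs there. With up to 20% mitochondrial UMIs allowed, the Sertoli class grew from 191 to 888 cells and Lama1 in it to 183 CPM (174 to 193).

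For the beta chains, Lamb1 was 419 CPM in stroma, 226 in peritubular myoid, 84.1 in pericytes, 67.2 in Leydig, 61.1 in endothelial and 8.40 in Sertoli cells. Lamb2, the beta chain of mature basement membranes in muscle and kidney, was flatter, at 216 CPM in stroma and in peritubular myoid cells, 212 in pericytes, 82.5 in endothelial, 78.8 in Leydig and 57.0 in Sertoli cells. Lamb2 was thus 86.4% of beta UMIs in Sertoli cells and 34.0% in stroma. Of the gamma chains, Lamc3 was 90.2% in peritubular myoid cells (88.3 to 91.8) and 79.7% in stroma, whereas Lamc1, the gamma chain of most laminins, was 84.9% in endothelial (72.4 to 93.3), 73.3% in Sertoli and 63.6% in pericyte cells. In levels, Lamc3 was 482 CPM and Lamc1 52.5 CPM in peritubular myoid cells, and 24.4 and 137 CPM in endothelial cells. The ratio of Lamc3 to Lamc1 was 9.18 in peritubular myoid cells (7.57 to 11.2), 1.02 in Leydig (0.875 to 1.19) and 0.178 in endothelial cells (0.0724 to 0.381). Lamb3, a beta chain that pairs with Lama3 in epithelial laminin, had 20 UMIs in the cells used.

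**Figure D3:**
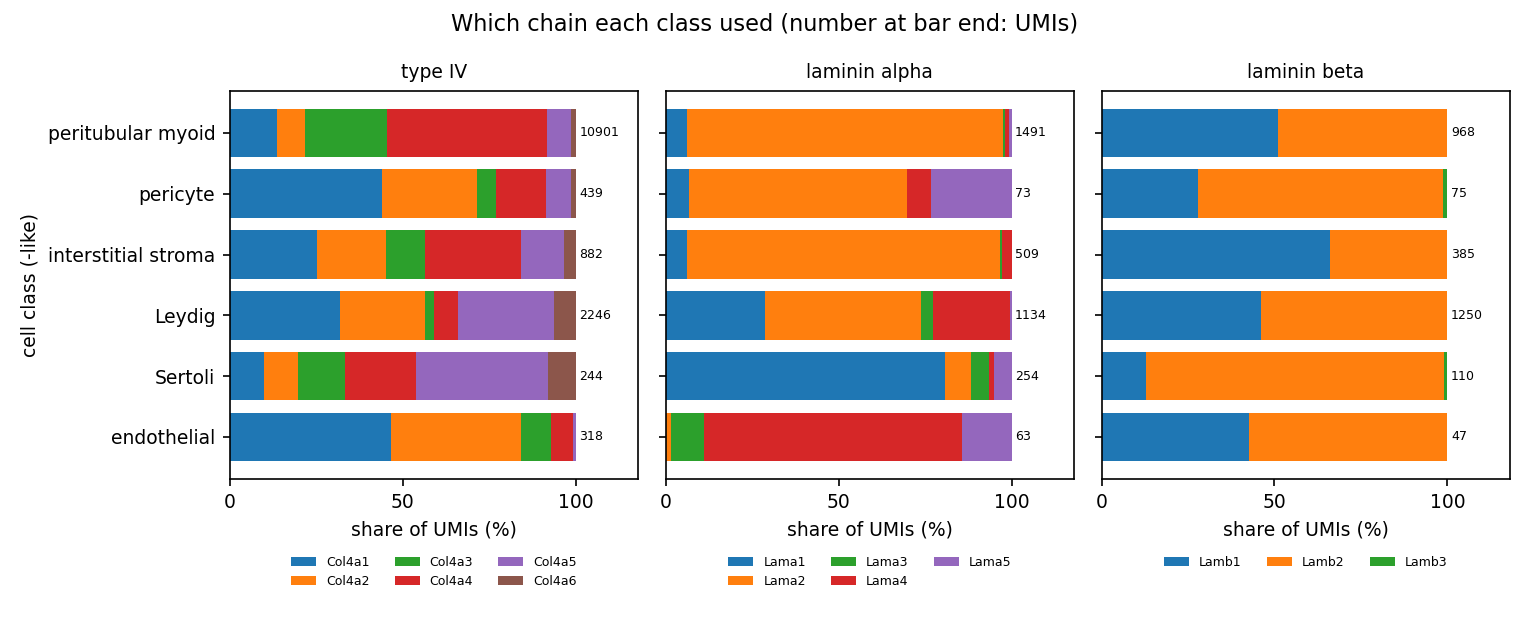
Share of UMIs by chain within type IV collagen and within the laminin alpha and beta families, in 6 somatic classes, with the number of UMIs at the end of each bar. Peritubular myoid cells and stroma share Lama2, Sertoli cells stand out by Lama1, and endothelial cells by Lama4.

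Among the fibrillar chains, Col1a1 and Col1a2 form type I collagen, normally as 2 alpha 1 chains and 1 alpha 2 chain, and Col3a1 forms type III collagen alone. In stroma they stood at 865, 1385 and 1030 CPM, in peritubular myoid cells at 550, 1006 and 556, and in pericytes at 100.1, 357 and 156 CPM. Stroma exceeded peritubular myoid cells 1.57-fold for Col1a1 (1.42 to 1.74), 1.38-fold for Col1a2 (1.27 to 1.49) and 1.85-fold for Col3a1 (1.68 to 2.04). In Leydig cells Col1a2 and Col3a1 reached 348 and 357 CPM, while Col1a1 was 13.9 CPM (11.5 to 16.6), close to its 11.4 CPM in Sertoli and 12.2 CPM in endothelial cells. The ratio of Col1a2 to Col1a1 was therefore 25.1 in Leydig cells (20.9 to 30.3), against 1.83 in peritubular myoid cells (1.71 to 1.96), 1.60 in stroma (1.43 to 1.79) and 3.56 in pericytes (2.26 to 5.79). With expected free RNA subtracted the Leydig ratio was 67.8. Col1a2 was seen in 27.4% of Leydig cells thinned to 1000 UMIs (78.4% without thinning, at a median of 8807 UMIs) and in 1.11% of macrophages (5.12% without thinning). A clustering at a finer resolution split the Leydig class into 654 and 315 cells. Col1a2 was 233 CPM and Col1a1 3.44 CPM in the first, and 636 and 40.2 CPM in the second, while Insl3, a hormone of mature Leydig cells, was 1197 and 549 CPM. 

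The remaining fibrillar chains were lower. Col5a1 and Col5a2 of type V, which sits inside type I fibrils, were 75.9 and 34.7 CPM in stroma, 29.7 and 19.2 in peritubular myoid cells and 4.09 and 5.49 in Leydig cells. Col5a3 was 28.0 CPM in pericytes, from 7 UMIs, and 3.30 CPM in stroma. Col11a1, known from cartilage, was 12.6 CPM in Leydig cells and 4.11 CPM in peritubular myoid cells, a ratio of 3.07 (1.56 to 6.90). Col27a1 reached 8.40 CPM in Sertoli cells and 8.21 in peritubular myoid cells. Col2a1, Col24a1 and Col11a2 stayed at or below 1.80 CPM in every somatic class except for 1 UMI of Col11a2 in pericytes.

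Type VI collagen, which forms beaded filaments around cells, had a similar split in Leydig cells. Its alpha 1, 2 and 3 chains normally assemble together. Col6a1, Col6a2 and Col6a3 stood at 272, 85.8 and 138 CPM in peritubular myoid cells and at 292, 59.4 and 90.8 CPM in stroma. In Leydig cells they stood at 105, 5.26 and 0.93 CPM. The ratio of Col6a1 to Col6a2 was 20.02 in Leydig cells (14.8 to 27.6), 3.18 in peritubular myoid cells (2.69 to 3.76) and 4.92 in stroma (3.42 to 7.25). Pericytes had 40.1, 20.03 and 108 CPM of the same chains, so that Col6a3 was the highest there. Col6a4 was 78.0 CPM in peritubular myoid cells, 2.49 times stroma (1.55 to 4.24), and 0.82 CPM in Leydig cells.

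**Figure D4:**
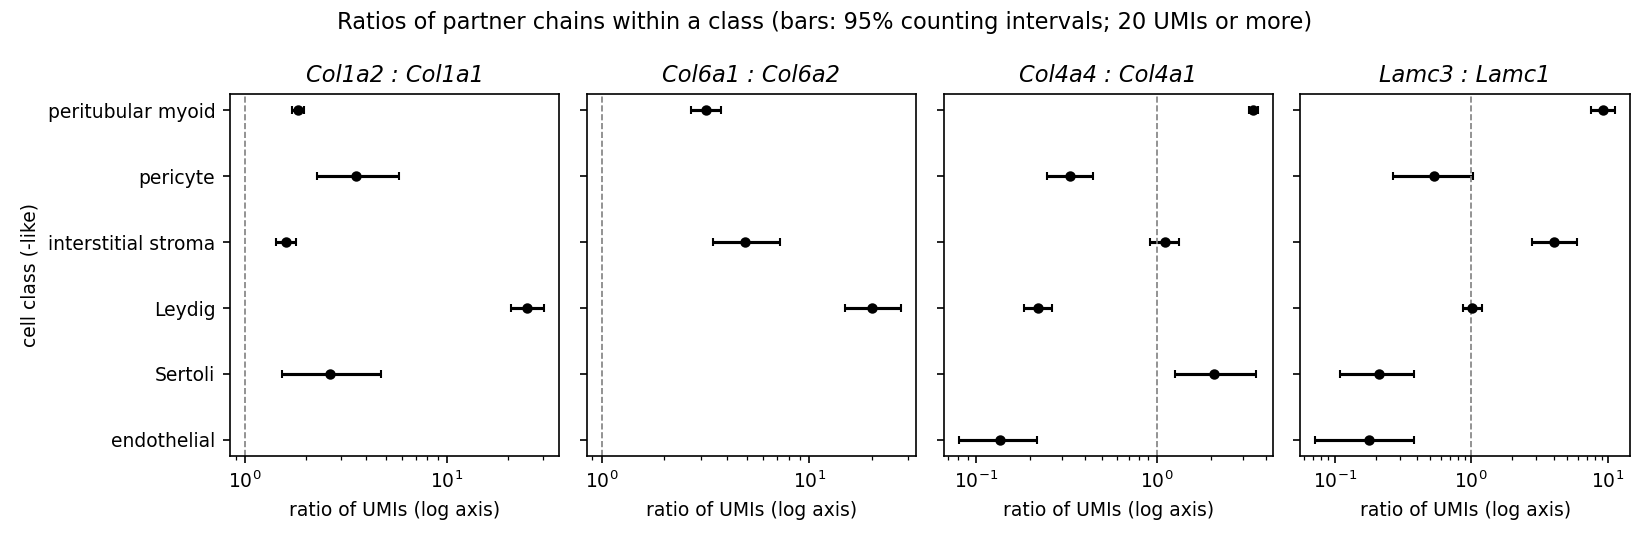
Ratio of UMIs of 2 chains within a class, on log axes, with 95% counting intervals, for classes with at least 20 UMIs of the pair. Leydig cells stand to the right for Col1a2 to Col1a1 (25.1) and Col6a1 to Col6a2 (20.02), and peritubular myoid cells for Col4a4 to Col4a1 (3.42) and Lamc3 to Lamc1 (9.18).

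Collagens outside these networks peaked in several classes. The multiplexins are proteoglycan collagens at the outer face of basement membranes. Col15a1 was 264 CPM in stroma, 94.7 in endothelial cells and 34.7 in peritubular myoid cells, and Col18a1, the source of endostatin, was 199 CPM in endothelial cells, 164 in pericytes, 99.6 in Sertoli cells and 8.67 in peritubular myoid cells. Of the transmembrane collagens, Col13a1 was 58.0 CPM in endothelial cells and 21.5 in stroma, and Col23a1 was 39.6 in stroma and 21.9 in peritubular myoid cells. Col26a1 was 27.7 CPM in Leydig cells and at most 4.19 CPM in the other 9 classes. Col19a1 was 40.1 CPM in pericytes, from 10 UMIs, and at most 2.50 CPM elsewhere. Col16a1 was 46.1 CPM in peritubular myoid cells, 36.3 in stroma and 21.5 in Leydig cells. Col8a2 was 17.8 CPM in peritubular myoid cells, and Col8a1 21.4 CPM in endothelial cells from 7 UMIs. Col14a1 was 15.7 CPM in macrophages, and 19 of those UMIs came from the 127 cells of the cluster led by the antigen-presentation genes Cd74 and H2-Eb1, at 78.1 CPM.

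Compared directly, peritubular myoid cells exceeded Sertoli cells at least 2-fold for 24 of 31 genes and fell below for 4, with 13.7% and 26.9% among all genes. The 4 were Lama1, Lama3, Col18a1 and Col9a3, of which Lama3 rests on 8 against 13 UMIs and its ratio of 0.468 has an interval across 1 (0.168 to 1.22). Against Leydig cells 24 of 35 genes were higher and 6 lower (17.1% and 14.6% of all genes), the 6 being Lama4, Col11a1, Col20a1, Col22a1, Col25a1 and Col26a1. Against interstitial stroma only 4 of 29 were higher (Col4a3, Col4a4, Col6a4 and Col8a2) and 5 lower (Col5a1, Col13a1, Col15a1, Col18a1 and Lama4), against 9.43% and 7.78% of all genes. With 5 UMIs over both classes in place of 20, the lower counts were 10 against Sertoli cells and 9 against stroma. The median log2 ratio over the 29 was -0.10, and -0.09 over all genes. The largest of these differences were those of Col4a3 and Col4a4 on the peritubular side and of Col15a1 on the stromal side, where it was 7.61 times as high (5.76 to 10.1).

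The germ classes held 102 CPM of basement membrane and 38.4 CPM of fibrillar chains. Free RNA from broken cells adds to every droplet, so each germ level was set against an expected free-RNA level. That level was taken from the 3592 barcodes under 1000 UMIs and scaled by somatic marker genes. These barcodes held at least 500 UMIs each, and whether they were empty droplets was not tested. With limits of 200 genes and 500 UMIs, stroma grew from 239 to 329 and peritubular myoid cells from 607 to 707, with 0 doublets called. The profile may thus hold RNA of small matrix-making cells. The expected share of free RNA was 12.8% in spermatogonia, 17.1% in early prophase and 14.7% in pachytene cells. Lama2 at 6.13, 4.28 and 4.14 CPM and Col1a2 at 8.46, 11.7 and 7.75 CPM did not exceed the expected level in any of the 3 stages. Of 46 genes with at least 20 UMIs in germ cells, 27 were at least 2-fold above it in spermatogonia, 20 in early prophase and 11 in pachytene cells. Among all genes these calls were 85.4%, 72.0% and 66.4%, above the shares of the collagen and laminin genes at each stage. These counts depend on the share of free RNA, which is a median over 7 marker lists that ran from 7.77% to 162% in spermatogonia, 7.84% to 77.9% in early prophase and 7.61% to 81.9% in pachytene cells. The pericyte and endothelial lists were the highest at every stage, and with the highest list only 1, 1 and 2 genes exceeded expected free RNA. Of 16 basement membrane genes, 7 passed in spermatogonia, 6 in early prophase and 0 in pachytene cells. Of the 11 pachytene genes, 7 passed in all 3 stages (Col7a1, Col9a3, Col14a1, Col16a1, Col20a1, Col23a1 and Col25a1).

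In spermatogonia the signal lay mostly in 1 of 3 clusters, of 437 cells led by Glis3, Trim71 and Gfra1, the last a receptor of undifferentiated spermatogonia. There 30 of 46 genes exceeded expected free RNA, against 85.0% of all genes. Lamb1 reached 59.8 CPM, against 3.71 in early prophase and 3.10 in pachytene cells, and was 15.1 times expected (12.0 to 19.3). Lamc1 reached 37.5 CPM (18.8 times expected, 13.7 to 26.3), so that a beta and a gamma chain were both present. Alpha chains were lower, at 10.2 CPM for Lama3, 9.84 for Lama4 and 8.72 for Lama5, all at least 13.9 times expected. Col25a1, a transmembrane collagen known from neurons, stood at 39.5 CPM (106 times expected, 54.7 to 235). Col5a1 was 22.1 CPM, Col22a1 20.8 and Col13a1 11.3 CPM. The other 2 spermatogonial clusters kept Col5a1 at 14.2 and 3.92 CPM and Col25a1 at 4.02 and 2.18 CPM. The median depth of the 3 clusters was 11218, 7062 and 3697 UMIs per cell.

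From spermatogonia to early prophase, the count of genes 2-fold or more lower was 19 of 44, and that of genes as much higher was 6, with 29.6% and 14.7% among all genes. Lama3 was 13.2 times lower (5.76 to 37.1), Col5a1 13.8 times (8.26 to 24.6), Col22a1 7.91 times (5.14 to 12.7), Lamb1 7.71 times (5.75 to 10.5) and Lama5 6.78 times (4.09 to 11.9). The 6 higher genes were Col20a1, Col24a1, Col2a1, Col7a1, Col11a2 and Lamb2. Col20a1 was 1.45 CPM in spermatogonia and 6.995 in early prophase, a ratio of 4.82 (2.90 to 8.47). Lamb2 was 6.53 and 13.5 CPM, a ratio of 2.07 (1.58 to 2.71). The X-linked Col4a5 was 8.14 CPM in spermatogonia, 14.5 in early prophase and 2.07 in pachytene cells, 7.01 times lower in the last step (3.93 to 13.8). Col4a6 was 3.21 times lower in that step (1.14 to 12.5).

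From early prophase to pachytene, 13 of 38 genes were lower by that measure and 5 higher, with 28.9% and 18.1% among all genes. With expected free RNA subtracted the counts were 10 lower and 19 higher. The 19 include genes with no UMIs left in either stage, which the fixed number set for empty counts always calls higher. Whether the balance turned therefore cannot be read from these counts. Without subtraction, the 5 higher ones were Col16a1, Col2a1, Col28a1, Col6a4 and Col24a1. Col16a1, a fibril-associated collagen, was 15.9 CPM in pachytene cells and 1.999 in early prophase, a ratio of 7.93 (5.15 to 12.6), and was 20.04 times expected free RNA. Col2a1, the main collagen of cartilage, was 7.75 and 1.57 CPM, a ratio of 4.94 (2.90 to 8.63). Col24a1 was 4.31 and 1.57 CPM. Lamc1 fell below its earlier level, at 2.58 against 10.2 CPM. These levels are low beside somatic ones, since 7.75 CPM corresponds to 45 UMIs in 288 cells.

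**Figure D5:**
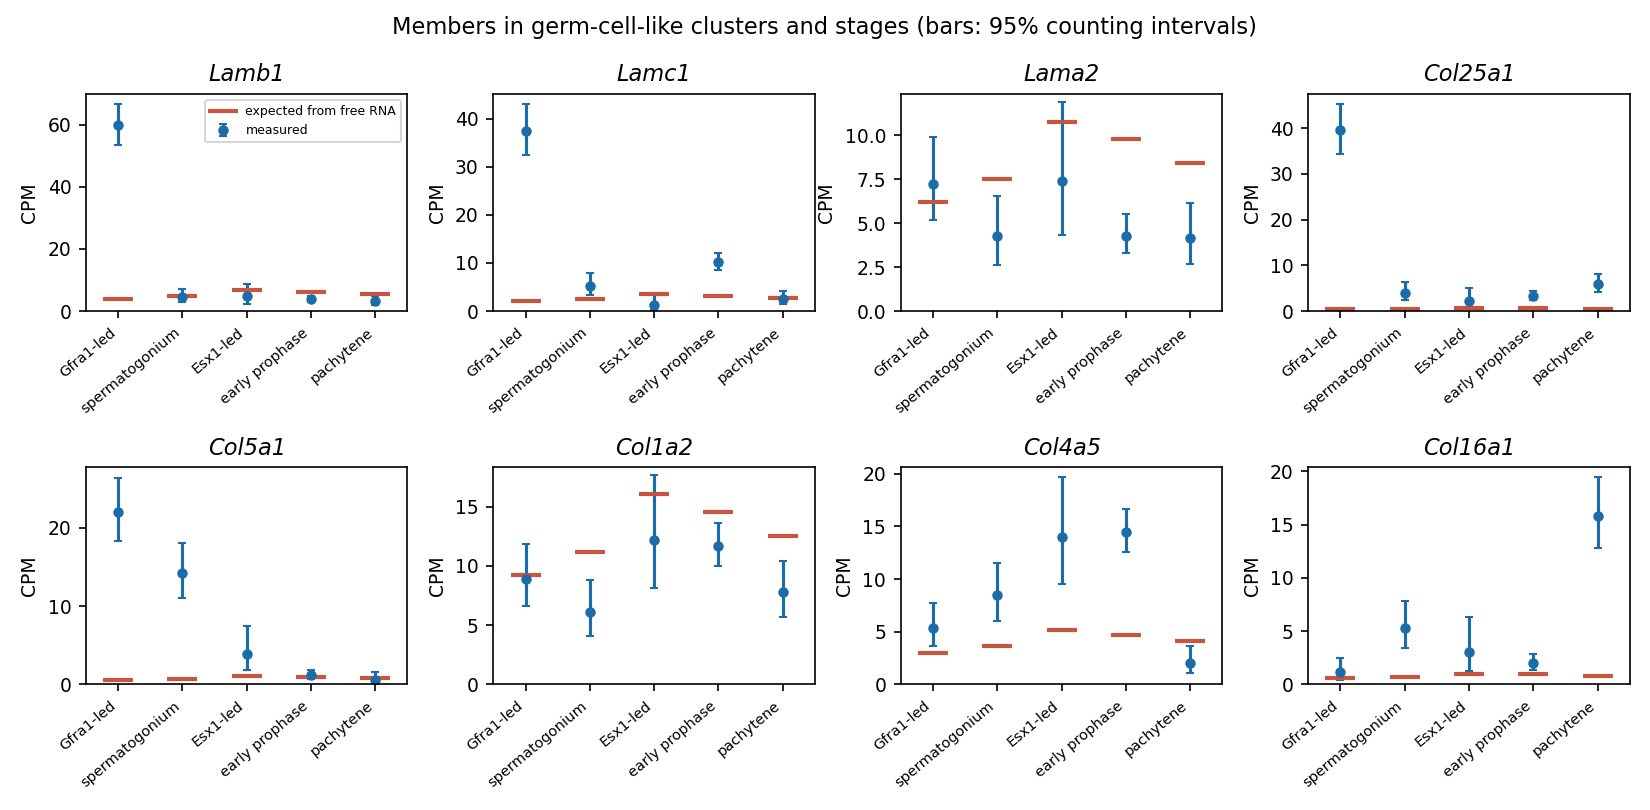
Level in CPM of 8 genes in the 3 spermatogonial clusters and the later germ stages, as points with 95% counting intervals, and the level expected from free RNA as a bar. Lamb1, Lamc1, Col25a1 and Col5a1 stand highest in the Gfra1-led cluster, Col4a5 in early prophase and Col16a1 in pachytene cells, while Lama2 and Col1a2 stay near or below the expected level.

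Genes that help to build, modify or sense the matrix were counted in 5 lists. The shares of all genes at least 2-fold higher and lower in somatic classes, 25.5% and 39.3%, apply to these lists too. Of 11 basement membrane partners, 7 were at least 2-fold higher in somatic than germ classes and 0 lower. Sparc, which binds type IV collagen, stood at 5655 CPM in endothelial and 2588 CPM in peritubular myoid cells, and Tinagl1 at 409 CPM in pericytes and 47.5 in peritubular myoid cells. Of 28 collagen-processing genes tested, 15 were higher and 2 lower. Serpinh1, the collagen chaperone of the endoplasmic reticulum, was 562 CPM in peritubular myoid, 454 in stroma and 86.2 in Leydig cells. Lox, which crosslinks collagen, was 28.8 CPM in peritubular myoid and 0.234 in Leydig cells. Of 7 fibril proteoglycans 5 were higher and 0 lower, with Bgn at 538 CPM in peritubular myoid cells and Ogn at 406 in stroma, while Aspn was 385 CPM in pericytes and at most 15.2 elsewhere. Of 14 receptors 8 were higher and 1 lower. Itgb1, the common integrin beta chain, was 606 CPM in peritubular myoid and 164 in spermatogonia, Ddr1 was highest in Sertoli cells at 233 CPM, and Ddr2 in peritubular myoid cells at 72.1 CPM. Of 12 turnover genes tested 9 were higher and 1 lower, with Timp3 at 1346 CPM in pericytes and Timp2 at 1386 in Leydig cells.

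Over the 21 clusters of at least 50 cells, the genes most like 3 chosen chains were ranked by Pearson's r among 14479 genes, as a description. For Col4a1 they were Col4a2 (0.97), Gucy1a1, Igfbp7, Id3 and Serpinh1. For Lama2 they were Col1a2 (0.97), C1qtnf7, Fmo1, Fhl2 and Adamts5. For Col1a1 they were Mfap4 (0.95), Fhl2, Pcdh7, Lama2 and Col6a2. The clusters share 1 library and its free RNA.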

How the data were processed

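Cells came from testis, and libraries from a 10x Chromium 3′ kit, v3.1, per the labels' protocols. The deposited UMI counts are whole numbers per gene and barcode from Cell Ranger 7.1.0, per the file headers, and the submitters' processing notes name STAR and mm10. The method of cell calling is not stated there. Barcodes with at least 500 genes, 1000 UMIs and at most 10% mitochondrial UMIs were kept (8121 of 15306), and Scrublet in scanpy 1.11.5 removed 235 as doublets (2.89%).

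Clustering used 3000 variable genes, 30 principal components, 15 neighbours and Leiden resolution 1 (leidenalg 0.10.2), without 1948 genes: X-linked, Y-linked, mitochondrial, and all collagen, laminin and partner genes. It gave 23 clusters. Clusters were named for the marker list with the largest mean log2 ratio to the median cluster if that was at least 1, led by 0.25 (not asked between consecutive germ stages) and rested on 3 markers at 2-fold. Clusters with a median UMI count under that of all cells divided by 3 stayed unnamed. This scoring, and the use of the lowest (somatic) or median (germ) marker ratio for the share of free RNA, were settled after clusters were seen. The genes and lists were chosen with earlier results of these data known. Names rest on rebuilt clusters.

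Levels are CPM of the counts summed per class, with exact Poisson 95% intervals, and ratios are given with exact conditional binomial intervals and shares with Clopper-Pearson intervals. A 2-fold call between 2 classes needed 20 UMIs over both, and in any ratio a count of 0 was set to 3. A call of the highest class needed 20 UMIs over the 10 ranked classes together, so the 2 classes compared could hold fewer. A gene was above free RNA if at least 2-fold over the expected level with the interval above 1. Values by class are printed for genes with at least 20 UMIs and 20 CPM in some class (32 genes), and the other 23 are given by counts, ranges or where a comparison called them, except 1 that is not reported here by name. Partner genes named are those highest in CPM, of largest or smallest somatic to germ ratio, or leading a class. Scripts were tested on simulated data. Python 3.11.15, numpy 2.4.6, scipy 1.17.1, pandas 2.3.3, scikit-learn 1.9.0, igraph 0.11.9 and matplotlib 3.10.9 were used. Alternatives covered filters, doublets, resolution, weighting, free RNA, chain lists and naming.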

Additional observations from a re-analysis of the deposited data

How the results depend on the processing

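No paired analysis was possible because 1 library was used. The level of all collagen and laminin genes in somatic over germ classes, 13.9 as reported, was 13.1 with at least 200 genes and 500 UMIs (where the doublet caller called 0 of 11154 cells and so did not work), 9.91 with at most 20% mitochondrial UMIs, 19.7 with equal weight for each cell and 27.5 with expected free RNA subtracted. The basement membrane share of stroma, 48.8% as reported, crossed 50% at 53.2% with the 20% mitochondrial limit and 51.0% with type XV and XVIII collagen counted, and was 44.1% without Col4a3 and Col4a4. That of peritubular myoid cells fell to 59.2% without those genes. The Sertoli share was 90.5% with the 20% limit, 79.2% with equal weight, 92.7% with free RNA subtracted and 87.2% with types XV and XVIII. The Leydig share was 46.4% with doublets kept, 44.1% with equal weight, 43.0% with free RNA subtracted and 44.4% without Col4a3 and Col4a4. The endothelial share was 94.2%, 92.7% and 98.0% under the first 3 of these. The Col1a2 to Col1a1 ratio in Leydig cells was 19.1, 20.8 and 67.8 under the same 3. With pericytes merged into the peritubular myoid class, an alternative added after seeing the data like the one without Col4a3 and Col4a4, the ratios of Lamc3 to Lamc1 and Col4a4 to Col4a1 were 7.49 and 3.06. With free RNA subtracted, 19 genes were called at least 2-fold higher in pachytene than early prophase cells. That count includes genes with 0 UMIs left in both stages, which setting 0 to 3 UMIs always calls higher. With the share of free RNA taken from the highest marker list, an alternative also added after seeing the data, 1, 1 and 2 genes exceeded it in spermatogonia, early prophase and pachytene cells, and with the lowest list 33, 30 and 16. With a minimum of 5 UMIs, 10 and 9 genes were lower in peritubular myoid than in Sertoli and stromal cells. Over 7 settings, 171 of 172 recomputed ratios of the 25 genes with a clear class stayed above 1. The exception was Col22a1, spermatogonia over Leydig cells, at 0.979 with equal weight. A further 2 of the recomputed ratios stayed above 1 but left the interval of the reported value. Why the other values moved was not tested.

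These data are 1 library of 1 genotype and age. Pericyte and endothelial values rest on 70 and 73 cells. Sertoli values rest on the minority of that class within the mitochondrial limit. Low germ levels are limited by the free-RNA profile, taken from deposited barcodes of under 1000 UMIs.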

Other observations

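Among the 870 unnamed cells, 98 shallow cells with Sertoli markers in the lead (median 1398.5 UMIs) held Lama1 at 243 CPM (189 to 308), against 123 CPM in the named Sertoli cells. Another unnamed cluster of 121 shallow cells had pachytene markers in the lead (median 1286 UMIs, 253510 in all). It held 55.2 CPM of Lamb3, a chain of epithelial laminin that stayed at or below 4.01 CPM in every named class. That level rests on few UMIs, since Lamb3 had 20 in all cells used. Within early prophase, the 628 cells of the cluster led by Ccnb3 and including Spo11, the enzyme that starts meiotic breaks, held Col4a5 at 33 CPM and Col20a1 at 15 CPM.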
